A study of Mus musculus with 30 samples.

Results

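The genes encoding the proteins of the cytosolic ribosome were examined in mouse hearts and in HL-1 cells. Members were chosen by symbol alone, as the Rps and Rpl genes with a plain number, Rplp0 to Rplp2 and Rpsa, without named pseudogenes and without the Rps6k kinases. The heart table held 87 such genes of 20764, of which 35 belong to the small and 52 to the large subunit. The HL-1 table held 83 protein-coding members of 54532 genes, and 82 members were in both tables. Of the 87 heart members, 5 (Rpl6l, Rpl32l, Rps3a2, Rps3a3 and Rps4l) are listed as pseudogenes in the HL-1 table.

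Each ribosome carries a single copy of nearly every one of these proteins, so their genes are expressed together and at high levels in almost all cells. Their transcripts belong to the group that starts with a run of pyrimidines, the terminal oligopyrimidine (TOP) tract, through which mTOR signaling adjusts their translation. Most of them have many processed pseudogenes, and a few have a tissue-specific paralog. Rpl3l, the best known in this tissue, takes the place of Rpl3 in heart and skeletal muscle.

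Hearts came from female C57BL6 mice, a mixed C57Bl6J/N strain according to the study's methods. Young mice were 2 months old and had no treatment, old H2O mice were 12 months old and drank plain water, and old NR mice were 12 months old and had received nicotinamide riboside (NR), a precursor of NAD+, at 3 g/L in the drinking water from the age of 2 months. Each was taken at ZT10 in the light phase and at ZT22 in the dark phase, with 3 mice per group and 18 hearts in all. HL-1, a line derived from an atrial tumor of a female mouse, was left untreated, treated with FK866, an inhibitor of the NAD+ synthesis enzyme NAMPT, with FK866 + NR, or with FK866 + NR + Ex527, an inhibitor of the deacetylase SIRT1. Each treatment had 3 libraries from separately cultured wells, and all 12 libraries came from this single line.

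Heart libraries held between 3922137 and 7562215 counts and HL-1 libraries between 21337922 and 35000109. The hearts expressed all 10 cardiomyocyte markers examined. The HL-1 libraries, which are labelled as cardiomyocytes, did not: Actc1, Pln and Myl2 were at 0 FPKM in 12 of 12 libraries, Myh6 reached at most 0.0406 FPKM, and Myl7, an atrial light chain, lay between 0.232 and 1.51 FPKM. In the same cells the fibroblast marker Col3a1 lay between 191 and 326 FPKM, Col1a1 between 69.8 and 114 and Dcn between 16.5 and 31.2, whereas Pdgfra lay between 1.2 and 3.22, Col1a2 between 0.854 and 2.57, and Lum was at 0 in 10 of 12 libraries. The 6 fibroblast markers summed to 291 to 303 FPKM under FK866, 416 to 422 under FK866 + NR, 376 to 388 under FK866 + NR + Ex527 and 424 to 459 in untreated cells, so this list moved with the treatments that are compared below.

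Sequences around the annotated start are shown because of the pyrimidine run for which these transcripts are known. The windows of 30 bases, 15 before and 15 from the RefSeq start on, are given for the 5 members with the smallest adjusted p after NR in FK866-treated cells, and for Rps27l and Rpl3l, whose levels departed from those of the other members. Capitals mark the longest run of C or T near the start.
Rpl13: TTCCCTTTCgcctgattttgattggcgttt
Rps6: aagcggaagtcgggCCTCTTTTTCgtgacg
Rplp0: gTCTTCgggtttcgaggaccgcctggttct
Rpl13a: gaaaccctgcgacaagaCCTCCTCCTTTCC
Rpl14: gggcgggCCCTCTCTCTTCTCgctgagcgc
Rps27l: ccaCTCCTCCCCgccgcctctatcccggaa
Rpl3l: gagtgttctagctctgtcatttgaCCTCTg

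These windows lie, in GRCm38.p6, at chr8:123102335-123102364 (plus strand, Rpl13), chr4:86857353-86857382 (minus strand, Rps6), chr5:115559452-115559481 (plus strand, Rplp0), chr7:45128731-45128760 (minus strand, Rpl13a), chr9:120571502-120571531 (plus strand, Rpl14), chr9:66946071-66946100 (plus strand, Rps27l) and chr17:24727811-24727840 (plus strand, Rpl3l). Each spans the upstream flank and the first exon by RefSeq, whose starts of Rps6, Rpl13a, Rpl14 and Rpl3l differ from the gene starts of GENCODE. The run was 10 bases long in Rpl13 and Rps6 and 14 in Rpl13a and Rpl14, against 5 in Rplp0 and in the muscle paralog Rpl3l. The run spanned the annotated start in Rps6 and Rpl14, lay wholly before it in Rpl13, Rplp0 and Rps27l, and wholly after it in Rpl13a and Rpl3l. In Rpl13 and Rpl13a it extended 1 base beyond the printed window.

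RefSeq windows were matched for 64 members, and 24 had none. A run of at least 7 pyrimidines within 10 bases of the start was found in 32 of 64 members (50%) and in 20% of 27025 genes, and the median longest run was 6.5 bases in members and 4.0 in all genes. In the 250 bases before and 50 after the start, CCGGAAG, a core of ETS-family binding sites, was found on either strand in 25 members (39.1%) against 9.14% of all genes. AAGATGGC, the core of the YY1 site, was found on either strand in 6 members (9.38%) against 2.87%, and the TATA box TATAAA on the coding strand in 7 members (10.9%) against 8.88%. The first 2 motifs can overlap in their letters AAG. These are matches of letters only.

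Of all counts, members took 3.57% ± 0.321 (SD, n = 3) in untreated HL-1 cells. In young hearts at ZT10 they took 0.577% ± 0.0179 (SD, n = 3). The 2 tables were processed differently, so these shares are not compared further. In hearts, the authors removed duplicate reads, reads that map to several places and reads that overlap several genes, and each of these steps bears on short, abundant genes with many copies. Of the 72-base windows of a member's principal transcript, a median of 50.6% were found unchanged in a transcript of another gene in GENCODE M21, most often a pseudogene. The share reached 98.5% in Rps27 and was 0, for example, in Rpl3l and Rpl39l. The heart level had a median of 0.476 counts per exonic base in the 3 members with no window shared, 0.175 in the 38 with up to 50% shared and 0.14 in the 46 with more.

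Several members were low for their kind. Rps10, a small-subunit protein, had 0.0081 counts per exonic base in hearts and 3.01 FPKM in HL-1 cells (90.2% of windows shared). Rpl24 had a mean of 3.61 counts in hearts and 0.832 FPKM in HL-1 cells (81% of windows shared, and 47% of its exonic bases overlapped by another gene). Rpl13a, often used as a reference gene in quantitative PCR, had 0.0404 counts per exonic base in hearts and 27.9 FPKM in HL-1 cells (56.5% of windows shared and 35.4% of exonic bases overlapped). Sharing and overlap make the levels of these members uncertain, but whether they lowered the levels was not tested. The windows have the length of the heart reads, and the sharing of HL-1 reads was not measured. In hearts, 82 members passed the average count of 5. Rpl24, Rpl39l, Rpl6l, Rpl32l and Rps3a3, with mean counts between 1.39 and 3.89, did not. In HL-1 cells, 81 passed, and Rpl10l and Rpl39l, paralogs known from testis, were at 0 in every library.

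Per exonic base, the highest members in hearts were Rps15 (0.848 counts), the stalk protein Rplp1 (0.793) and Rpl3l (0.753), and the median member had 0.166 against 0.0498 for all protein-coding genes over the count minimum. The lowest tested were the listed pseudogene Rps3a2 (0.00744), Rps10 and Rpl13a. Duplicates had been removed from these counts, and the highest of the contractile genes, Actc1, Mybpc3, Tcap and Myh6, had only between 1.45 and 1.67 counts per exonic base. In HL-1 cells the highest were the stalk proteins Rplp0 (1374 FPKM) and Rplp1 (1326 FPKM), followed by Rpl4 (892 FPKM), with a median member of 181 FPKM against 6.27 for protein-coding genes. The lowest of the tested members there were Rpl3l (0.219 FPKM), Rpl24 and Rpl29 (1.68 FPKM).

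The share of counts in members followed the depth of the heart libraries. It was 0.612% in the shallowest heart, old H2O at ZT22 replicate 1 with 3922137 counts, and 0.481% in the deepest, replicate 3 of the same group with 7562215 counts. Across the 18 hearts, Pearson's r between the share and the log2 library total was -0.961 and Spearman's rho -0.973, and r was -0.949 without the 2 hearts farthest from the median total. This is a description, since both measures come from the same libraries. With the library total as a term of the model, 69 of 82 members were lower in deeper libraries (edgeR, adjusted p under 0.05), as were 9.2% of all genes, with a median slope of -0.54 in members and 0.057 in all genes. In the 12 HL-1 libraries r was -0.023 and rho -0.0035 (r of -0.273 without 2), and neither a member nor any other of the 14760 genes passed for the total (edgeR, adjusted p), with a median slope of -0.20 in members, 72 of 81 below 0, and 0.010 in all genes. Heart totals ran from 4595775 to 5450024 (ZT10) and 4538090 to 6068397 (ZT22) in young, from 4935128 to 5905919 and 3922137 to 7562215 in old H2O, and from 5619294 to 6578644 and 4364594 to 7321880 in old NR mice.

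**Figure D1:**
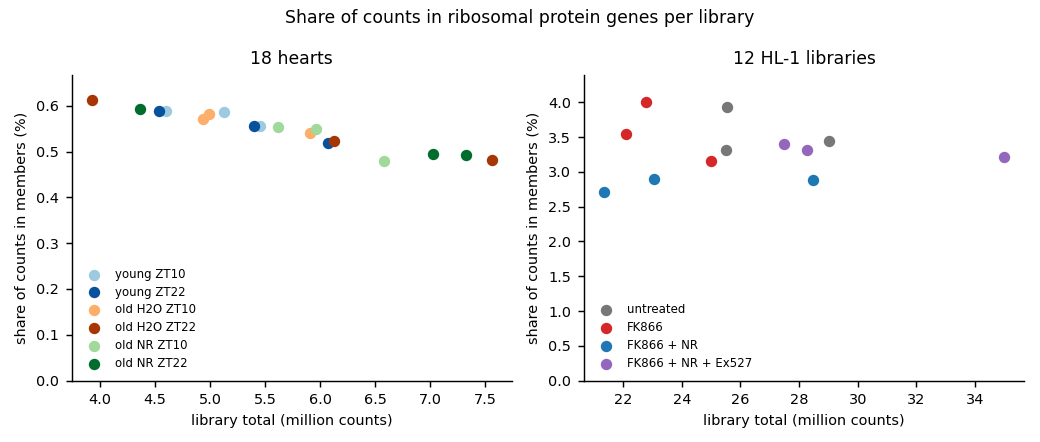
Share of all counts in ribosomal protein genes (percent, y axis) against the library total (counts, x axis) in 18 hearts (left) and 12 HL-1 libraries (right), each point 1 library colored by group. In hearts the share fell from 0.612% in the shallowest to 0.481% in the deepest library, and in HL-1 cells the FK866 + NR libraries lay between 2.71% and 2.90% and all others between 3.16% and 4.01%.

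The ratios of Rpl3l, Rps4l and Rpl7l1 to their partners did not overlap between hearts and HL-1 cells, while those of Rps27l and Rpl22l1 did. The 2 tables were processed differently, and removal of reads that map to several places is known for hearts only. How much this bears on each ratio was not tested. Rpl3l (chromosome 17, 24727820 to 24736143, plus strand) had normalized counts between 1012 and 1462 in all 18 hearts, and no sequence window of it is shared with another gene. Rpl3 (chromosome 15, 80077791 to 80091868, minus strand) had between 398 and 593, with 83.5% of its windows shared. Per exonic base, the ratio of Rpl3l to Rpl3 was 4.18 at the lowest, 4.87 at the median and 6.1 at the highest heart. Exonic bases here are all annotated exons of a gene joined, 3175 for Rpl3 and 1643 for Rpl3l. The principal transcripts have 1351 and 1375 bases, and by these lengths the ratio would be smaller. Removal of reads that map to several places bears on Rpl3 and not on Rpl3l, so the size of the ratio is uncertain. In HL-1 cells Rpl3l had 2.05 to 24.9 normalized counts per library, and the ratio lay between 0.00029 and 0.00443. The paralog with the higher counts per exonic base in hearts was thus nearly absent from the cell line.

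By group, the ratio of Rpl3l to Rpl3 was 5.36 ± 0.82 in young hearts at ZT10, 5.63 ± 0.486 in young hearts at ZT22, 4.62 ± 0.251 and 4.29 ± 0.11 in old H2O hearts at ZT10 and ZT22, and 5.09 ± 0.391 and 4.84 ± 0.626 in old NR hearts (SD, n = 3 each). At ZT22 the old H2O hearts (4.18 to 4.4) lay below all young hearts (5.08 to 6.01), and at ZT10 the groups overlapped. Neither gene alone was called: between old H2O and young hearts, Rpl3l differed by -0.19 on the log2 scale at ZT10 (standard error, SE, 0.11; adjusted p = 0.335) and by -0.18 at ZT22 (adjusted p = 0.304), and Rpl3 by 0.21 at ZT22 (adjusted p = 0.202). The ratio was looked at because of its range and was not tested.

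Rps4l (chromosome 6, 148354656 to 148355598, plus strand), a retrogene related to the X-linked Rps4x that GENCODE lists as a transcribed processed pseudogene, was expressed in hearts with 147.0 counts on average and had a mean of 0.333 counts in HL-1 cells. Only 8.91% of its windows are shared. The ratio of Rps4l to Rps4x per exonic base had a median of 0.506 over the hearts. Rps27l, a paralog of Rps27 that is a known target of p53, stood at 1.29 to 1.69 times Rps27 per exonic base in hearts and 1.12 to 1.77 times in HL-1 cells. Rps27 has 1043 exonic bases but 345 in its principal transcript, and Rps27l has 816 and 499. Which of the 2 is higher thus depends on the length used. Rps27 itself is the member with the most shared sequence. Rpl7l1, a homolog of Rpl7 that works in nucleolar assembly, had 0.482 to 0.831 of the level of Rpl7 in hearts and 0.127 to 0.175 in HL-1 cells. Of the windows, 42.6% are shared in Rpl7 and 4.68% in Rpl7l1, so read removal in hearts bears more on Rpl7. The difference in this ratio between hearts and HL-1 cells is thus uncertain. Rpl22l1 had 0.129 to 0.183 of Rpl22 in hearts and 0.154 to 0.225 in HL-1 cells. Rpl39l had at most 0.0792 of the level of Rpl39 in hearts.

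**Figure D2:**
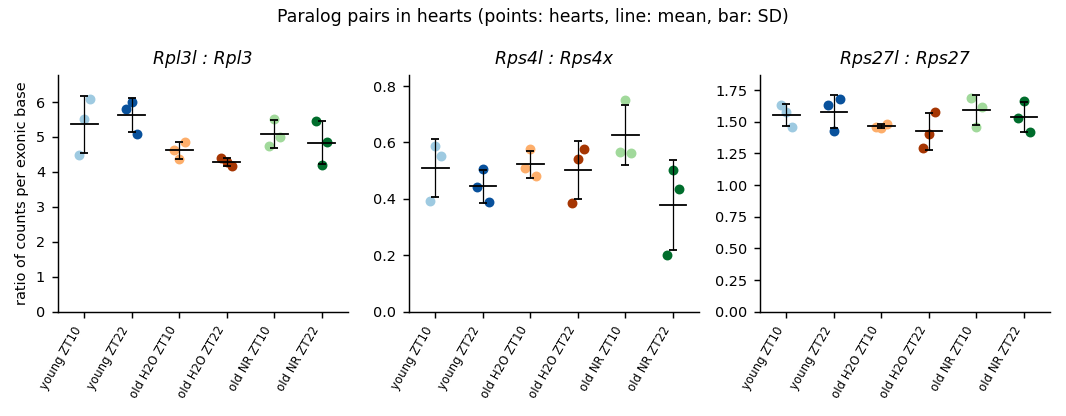
Ratio of counts per exonic base (y axis) of Rpl3l to Rpl3, Rps4l to Rps4x and Rps27l to Rps27 in the 6 groups of hearts (x axis), with points for hearts, lines for means and bars for SD (n = 3). Per exonic base, Rpl3l exceeded Rpl3 in every heart, from 4.18 to 6.1 times, and Rps4l stayed below Rps4x, from 0.2 to 0.751. The size of these ratios depends on the length used.

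The first question in hearts was whether members differed between ZT10 and ZT22, and whether age or NR altered this. In young hearts, 0 of 82 members were called (edgeR and DESeq2, adjusted p under 0.05), where 14.4% of 15443 genes were, and 3 had an unadjusted p under 0.05, as did 26.8% of all genes. Duplicates had been removed from the heart counts, which can narrow differences in short, abundant genes. Few calls in hearts thus do not show that the members did not change. The median log2 fold change of members, ZT10 over ZT22, was 0.058 against 0.0069 for all genes, and between 0.0087 and 0.11 with 1 heart left out. The clock genes did differ in the same hearts, with Arntl at -5.86 (SE 0.18, adjusted p = 4.91e-16) and Dbp, an output gene of the clock, at 4.66 (SE 0.15, adjusted p = 1.46e-15). The member with the smallest p was Rpl22, a large-subunit protein, which had normalized counts of 802, 821 and 828 at ZT10 and 772, 673 and 736 at ZT22. The groups did not overlap, and the log2 fold change was 0.17 (SE 0.063, adjusted p = 0.0778). It passed the threshold with library totals as scaling (adjusted p = 0.0388), with the library total as a covariate (0.034) and without young ZT22 replicate 1 (0.0434). Rpl7l1 came next, with -0.13 (SE 0.058, adjusted p = 0.141).

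In old H2O hearts, 0 members were called (edgeR and DESeq2) and 0 had an unadjusted p under 0.05, where 4.2% of all genes were called and 17.7% had such a p. Of 82 members, 81 had a fold change above 0, with a median of 0.12. This median was 0.0035 without old H2O ZT22 replicate 3, the deepest heart, 0.23 without replicate 1 of that group, the shallowest, and 0.048 with the library total as a covariate. Rpl22 had 0.12 (adjusted p = 0.307) and Rpl35 0.22 (adjusted p = 0.366). For the age by time interaction, 0 members were called (edgeR and DESeq2) against 6.89% of all genes, and 2 had an unadjusted p under 0.05 against 21.8%. The median was 0.058, but -0.061 without old H2O ZT22 replicate 3, 0.18 without replicate 1 of that group and 0.0016 without young ZT22 replicate 1. Rpl13a had the smallest p in it, with an interaction of 0.50 (SE 0.18, adjusted p = 0.107). The old H2O hearts at ZT22 spread widely in depth, from 3922137 to 7562215 counts, and the part of depth in these values was not tested.

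In old NR hearts, 1 member was called higher at ZT10, Rps4l, where 2.36% of all genes were called higher and 5.37% in either direction. At an unadjusted p under 0.05 there were 2 members and 18% of all genes. Its normalized counts were 175, 177 and 163 at ZT10 and 67.1, 125 and 117 at ZT22, so the groups did not overlap and replicate 1 at ZT22 was the lowest of all hearts. The log2 fold change was 0.69 (SE 0.15, adjusted p = 0.00887), and the call held in each fit without 1 heart. This lowest heart had 4364594 counts, the fewest of the old NR libraries. The median of members was -0.0082, but 0.10 without it and 0.094 without old NR ZT10 replicate 2. For the NR by time interaction, 0 members were called (edgeR and DESeq2) against 0.343% of all genes, and 1 had an unadjusted p under 0.05 against 10.3%. Rps4l had 0.50 in it (SE 0.22, adjusted p = 0.418), so its difference between the times was not shown to depend on NR. The median over members was -0.13, with 77 of 82 below 0, and -0.077 with the library total as a covariate. It was -0.012 without old NR ZT22 replicate 1, -0.013 without old H2O ZT22 replicate 3 and -0.028 without old NR ZT10 replicate 2.

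The second question was whether members differed with age or NR at a given time. At ZT10, 0 members were called between old H2O and young hearts (edgeR and DESeq2), where 5.87% of all genes were, and 0 had an unadjusted p under 0.05 against 19.7%, and the median was -0.018, turning to 0.025 without old H2O replicate 2 and 0.0025 without young replicate 3. Rpl3l, with -0.19, had the smallest p, and passed the threshold with the library total as a covariate (adjusted p = 0.0461) and in a fit of only these 2 groups (adjusted p = 0.03). Rpl10a followed with -0.12 (adjusted p = 0.524). At ZT22, 1 member was called lower in old H2O hearts, Rpl13a, where 6.17% of all genes were called lower and 14.1% in either direction. At an unadjusted p under 0.05 there were 2 members and 27.5% of all genes. In whole hearts, fewer cells of a type and less RNA per cell cannot be told apart. Rpl13a had normalized counts of 66.2, 85.5 and 70.7 in old H2O and 88.7, 95.7 and 114 in young hearts, which do not overlap. The log2 fold change was -0.42 (SE 0.13, adjusted p = 0.0339). The adjusted p was 0.101 with DESeq2 and between 0.0604 and 0.182 without old H2O replicate 1 or 3 or young replicate 2 or 3, so the call rests on each of these 4 hearts.

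At ZT22 the median of all members between old H2O and young hearts was -0.076, with 77 of 82 below 0, but 0.045 without old H2O replicate 3, -0.19 without replicate 1 and -0.024 without young replicate 1. The macrophage markers moved in the same comparison: 5 of 6 were called higher in old H2O hearts, with sums of 2112 to 2332 normalized counts against 1482 to 1660 in young hearts. Of the 6 endothelial markers 2 were called lower, with sums of 7582 to 8787 against 8860 to 9812. The part of these lists in the values of the members was not tested. Of the 42 ribosome biogenesis genes, which make and assemble the subunits, 1 was called higher and 6 lower in old H2O hearts at ZT22, with a median of -0.10. In this comparison 6.17% of all genes were called lower and 14.1% in either direction. Ubtf, a factor of ribosomal RNA transcription, had -0.33 (SE 0.066, adjusted p = 0.00205).

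With NR, 0 members were called against old H2O hearts at ZT10 (edgeR and DESeq2), where 0.285% of all genes were called, and 0 had an unadjusted p under 0.05 against 10.1%. The median of members was -0.15, with 77 of 82 below 0. In 10 members the groups did not overlap with old NR lower, and so it was in 9.21% of all genes. Rpl7a had 584, 463 and 571 normalized counts in old NR and 654, 606 and 650 in old H2O hearts, a log2 fold change of -0.24 (SE 0.12, adjusted p = 0.503). Rpl41, the shortest ribosomal protein, had -0.26 (adjusted p = 0.50). The median was -0.042 with the library total as a covariate and -0.047 without old NR ZT10 replicate 2, the deepest of these libraries with 6578644 counts. Atrial markers moved in this comparison, with 3 of 5 called lower and sums of 632 to 735 normalized counts in old NR against 2195 to 2856 in old H2O hearts. The fibroblast markers summed to 5505 to 6373 against 7012 to 8047 (1 of 6 called lower) and the cardiomyocyte markers to 33859 to 39963 against 40166 to 46665 (1 of 10 called lower). Within old H2O hearts at ZT22 alone, the cardiomyocyte sum ran from 33568 to 51432. Whether library depth bears on these sums was not tested. The part of these lists was not tested. At ZT22, 0 members were called (edgeR and DESeq2) against 0.35% of all genes, and 1 had an unadjusted p under 0.05 against 11.2%. The median was -0.021, and lay between -0.14 (without old NR replicate 1) and 0.097 (without old H2O replicate 1). Rps4l had the smallest p there, with -0.43 (adjusted p = 0.272), and Rpl22 had 0.085 (adjusted p = 0.69). The macrophage markers summed to 1535 to 1644 in old NR against 2112 to 2332 in old H2O hearts (3 of 6 called lower), and the fibroblast markers to 5906 to 6842 against 7059 to 8569 (1 of 6 called lower). The part of these lists was not tested. The comparisons in hearts share groups with one another, so their values are given side by side only.

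**Figure D3:**
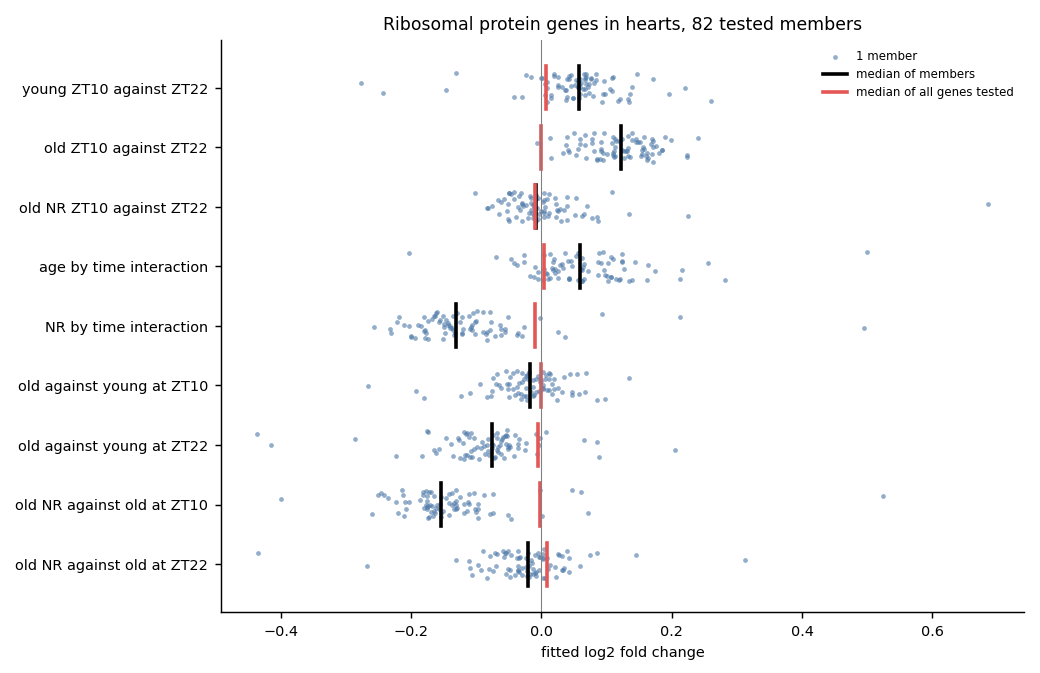
Fitted log2 fold changes (x axis) of the 82 tested members in the 9 comparisons of hearts (y axis), each point 1 member, with the median of members in black and the median of all genes tested in red. The medians of members lay between -0.15 and 0.12, and 2 single members, Rps4l in old NR hearts and Rpl13a at ZT22, were called.

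The members with roles outside the subunit body spread widely within groups of hearts, as did other members. Rplp0, the base of the stalk that recruits elongation factors, had between 720 and 1124 normalized counts, and both extremes were in the old H2O group at ZT22. The same held for members outside this list, such as Rps15, with 426 and 686 in replicates 3 and 1 of that group, and Rpl8, with 743 and 1131. These replicates are the deepest and the shallowest heart, and the part of depth in this spread was not tested. Rps6, the substrate of the S6 kinases, had between 206 and 304, and Rpsa, which also serves as a laminin receptor precursor, between 381 and 593. Of the 11 members of this list, 0 were called (edgeR) in any comparison of hearts except Rpl13a.

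In HL-1 cells the question was how the members responded to loss of NAD+ under FK866, to its repletion with NR and to SIRT1 inhibition. FK866 + NR cells had the lowest levels. Members carried 2.83% ± 0.104 of the counts under FK866 + NR, 3.57% ± 0.426 under FK866, 3.31% ± 0.0954 under FK866 + NR + Ex527 and 3.57% ± 0.321 in untreated cells (SD, n = 3 each). All 3 FK866 + NR libraries (2.71%, 2.90% and 2.88%) lay below each of the other 9. Small-subunit genes carried 1.06% to 1.14% under FK866 + NR and 1.22% to 1.60% elsewhere, and large-subunit genes 1.64% to 1.76% and 1.93% to 2.41%. Replicate 1 of FK866 + NR had the lowest share and also the most genes with a count, 22167.

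Under FK866 alone few members passed the test. Against untreated cells, 1 member rose and 1 fell at an adjusted p under 0.01 (edgeR), where 6.19% of 14760 genes rose, 7.68% fell and 13.9% passed in all. At an unadjusted p under 0.05 there were 7 members and 36.6% of all genes, and the median log2 fold change was -0.055 against 0.016 for all genes. With the additional minimum of 0.58496 on the log2 scale that the study applied, 1 member passed, Rps10, against 2.09% of all genes that did so upwards and 4.59% in all. Rps10 (chromosome 17, 27630418 to 27636669, minus strand) had normalized counts of 133, 171 and 136 in untreated and 229, 233 and 205 in FK866 cells, with no overlap and a log2 fold change of 0.60 (SE 0.12, adjusted p = 0.00209). Of its 72-base windows, 90.2% are shared with other genes, as given above. That window length is the one of the heart reads, and the sharing of HL-1 reads was not measured. Without FK866 replicate 1, untreated replicate 1 or untreated replicate 3, its adjusted p was between 0.0102 and 0.0109, and with the library total as a covariate it was 0.013.

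Rps27l (chromosome 9, 66946086 to 66949516, plus strand) was the member that fell. It had 2100, 1929 and 2337 normalized counts in untreated cells, 1529, 1678 and 1324 under FK866, 1476, 1322 and 1518 under FK866 + NR and 1721, 1370 and 1546 under FK866 + NR + Ex527. Every treated library lay below every untreated one. The log2 fold change against untreated cells was -0.49 under FK866 (SE 0.10, adjusted p = 0.00261), -0.56 under FK866 + NR (SE 0.10, adjusted p = 0.00909) and -0.46 under FK866 + NR + Ex527 (SE 0.10, adjusted p = 0.00923), comparisons that share the untreated libraries. Between FK866 + NR and FK866 it differed by -0.069 (SE 0.10, adjusted p = 0.651). In single fits without 1 library its adjusted p under FK866 rose to between 0.0125 and 0.0133 without FK866 replicate 1 or 3 or untreated replicate 3. Under FK866 + NR it was between 0.0192 and 0.0472 without any of the 6 libraries but untreated replicate 1. Of the 10 p53 target genes examined, 1 was higher and 2 lower under FK866 at an adjusted p under 0.01, where 6.19% of all genes rose and 7.68% fell. Sesn2, a stress-induced inhibitor of mTORC1 signaling, had 0.32 (SE 0.080, adjusted p = 0.00841), Ccng1 had -0.35 (SE 0.063, adjusted p = 0.000932) and Trp53inp1 -0.39 (SE 0.077, adjusted p = 0.00217).

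Members were lower under FK866 + NR than under FK866. Of 81 tested, 19 fell and 0 rose at an adjusted p under 0.01 (edgeR), 5 of the small and 14 of the large subunit, where 7.97% of all genes fell and 15.3% changed. The median log2 fold change was -0.28 against 0.0055 for all genes, with 78 members below 0, and it was -0.28 in each subunit. At an unadjusted p under 0.05, 60 members were lower and 0 higher (40.2% of all genes changed at this level). In 50 members all FK866 + NR libraries lay below all FK866 libraries, as in 21.7% of all genes. The 3 members with a fold change above 0 were Rps28 (0.077), Rpl24 (0.062) and Rpl3l (1.17, adjusted p = 0.131, with 24.9 normalized counts at most). The count of members that fell was 50 without FK866 replicate 3 and between 4 and 8 without any other of the 6 libraries, and it lay between 9 and 48 under the other settings. The median kept its sign in all of these fits, between -0.37 and -0.18 with 1 library left out.

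Rplp0 (chromosome 5, 115559467 to 115563727, plus strand), whose start has a run of only 5 pyrimidines, had 64408, 70677 and 60412 normalized counts under FK866 and 46082, 51533 and 51855 under FK866 + NR, a log2 fold change of -0.39 (SE 0.073, adjusted p = 0.00126). Rps6 (chromosome 4, 86854660 to 86857412, minus strand), with a run of 10, went from 21790, 25160 and 21270 to 17064, 17967 and 17577, a log2 fold change of -0.37 (SE 0.067, adjusted p = 0.000865). Rpl13 (chromosome 8, 123102350 to 123105244, plus strand) had the smallest adjusted p of all members. Its normalized counts were 19439, 21354 and 16438 under FK866 and 13003, 14132 and 14213 under FK866 + NR, a log2 fold change of -0.47 (SE 0.082, adjusted p = 0.000745). In these 3 genes the FK866 + NR libraries were the lowest 3 of all 12.

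Rpl13a (chromosome 7, 45125558 to 45128761, minus strand) had 1779, 1908 and 1582 normalized counts under FK866 and 1289, 1235 and 1272 under FK866 + NR, a log2 fold change of -0.47 (SE 0.091, adjusted p = 0.0015; 0.0104 without FK866 + NR replicate 2). Rpl3, the partner of the muscle paralog, went from 13543, 13964 and 12048 to 10222, 10896 and 10847 (-0.31, SE 0.063, adjusted p = 0.00223). Rps27a, which is made as a fusion with ubiquitin, passed the fold minimum as the only member, beside 2.02% of all genes that did so downwards and 4.81% in all. It had 9230, 13278 and 5997 normalized counts under FK866 and 3383, 4011 and 6547 under FK866 + NR, and these groups overlapped. Its log2 fold change was -1.03 (SE 0.26, adjusted p = 0.00818), and the adjusted p lay between 0.0228 and 0.0446 without FK866 replicate 1 or 2 or FK866 + NR replicate 1 or 2.

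Of the members with additional roles, Rplp1 (-0.34, adjusted p = 0.0298), Rplp2 (-0.23, adjusted p = 0.0841), Rpsa (-0.24, adjusted p = 0.0386), Rpl5 (-0.29, adjusted p = 0.0153), Rps19 (-0.39, adjusted p = 0.0138) and Rpl32 (-0.31, adjusted p = 0.032) missed the threshold of 0.01 after NR. Rpl5 and its partner Rpl11, which bind Mdm2 when ribosome assembly is disturbed, had log2 fold changes of -0.29 and -0.18 (adjusted p = 0.189 for Rpl11). Rps18, another common reference gene, had -0.069 (adjusted p = 0.749) with 525 to 771 normalized counts under FK866 and 513 to 678 under FK866 + NR. Among paralogs, Rpl7 (-0.23, adjusted p = 0.0204) and Rpl7l1 (-0.17, adjusted p = 0.132) did not pass, nor did Rpl22 (-0.15, adjusted p = 0.198) and Rpl22l1 (-0.36, adjusted p = 0.109), Rps27 (-0.27, adjusted p = 0.166) or Rpl10 (-0.26, adjusted p = 0.0189), while Rps4x fell by 0.38 (SE 0.081, adjusted p = 0.00321).

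**Figure D4:**
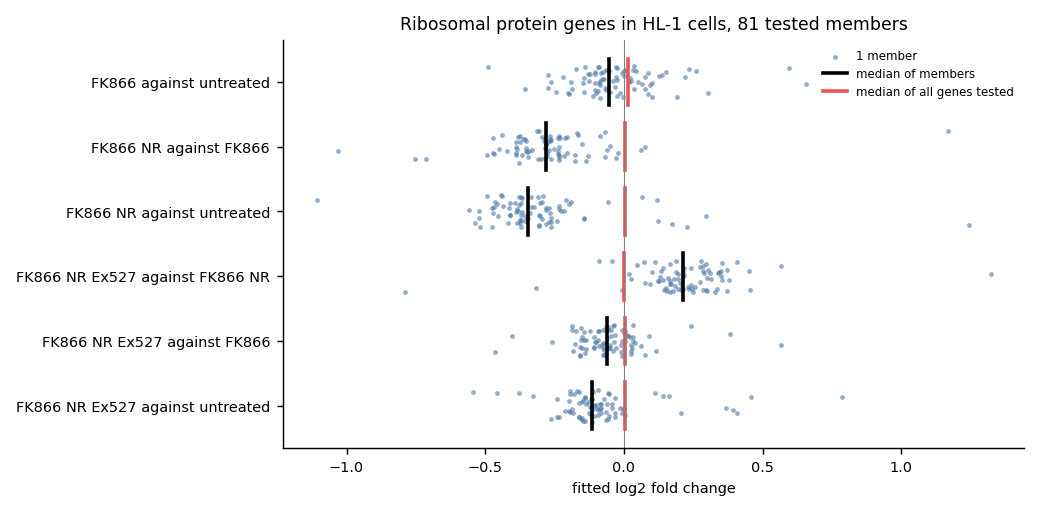
Fitted log2 fold changes (x axis) of the 81 tested members in the 6 comparisons of HL-1 treatments (y axis), each point 1 member, with the median of members in black and of all genes tested in red. The median was -0.28 and -0.35 for FK866 + NR against FK866 and against untreated cells, and 0.21 for FK866 + NR + Ex527 against FK866 + NR.

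Other genes of translation were tested in the same comparison of FK866 + NR with FK866 at an adjusted p under 0.01, where 7.97% of all genes fell. Of 42 ribosome biogenesis genes, 21 fell and 0 rose, with a median of -0.28. Rrp12, an export factor of both subunits, had -0.74 (SE 0.072, adjusted p = 5.62e-06) and Polr1b, a subunit of RNA polymerase I, -0.44 (SE 0.059, adjusted p = 7.42e-05). Of 77 mitochondrial ribosomal proteins, 24 fell and 0 rose, with a median of -0.26. Of 19 tested elongation and initiation factors and other genes with TOP transcripts, 5 fell and 0 rose. Among them Eef1a1 had -0.40 (SE 0.052, adjusted p = 6.21e-05) and Eef2 -0.34 (SE 0.052, adjusted p = 0.000268). Rack1, a ribosomal protein that the symbol rule leaves out, had -0.39 (SE 0.081, adjusted p = 0.00276). Named ribosomal protein pseudogenes had a median of -0.32 over 75 tested, and they carried 0.273% to 0.315% of the counts under FK866 + NR and 0.326% to 0.419% in the other libraries.

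Under FK866 alone the biogenesis genes were tested as well. Against untreated cells, 15 of 42 biogenesis genes were higher and 0 lower, where 6.19% of all genes rose and 7.68% fell. Their median was 0.21, led by Rrp12 (0.94, SE 0.073, adjusted p = 5.94e-07) and Taf1d (0.62, SE 0.066, adjusted p = 1.01e-05). The members had a median of -0.055 in that comparison, which turned to 0.049 without FK866 replicate 3 and 0.028 without untreated replicate 3, and was -0.16 without FK866 replicate 2. The difference between the lists was not tested. Of the 5 fibroblast markers tested, 4 were lower under FK866 than in untreated cells and 4 were higher under FK866 + NR than under FK866. Whether they bear on the values of the members was not tested.

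Against untreated cells, FK866 + NR cells also had lower members. At an adjusted p under 0.01, 9 of 81 fell and 0 rose, 3 of the small and 6 of the large subunit, where 1.36% of all genes fell and 2.66% changed. The median was -0.35 against 0.0029 for all genes, and 67 members were lower and 1 higher at an unadjusted p under 0.05 (39.3% of all genes changed at this level). In 65 members all FK866 + NR libraries lay below all untreated ones, as in 23.3% of all genes. Rpl27 had 8112, 8328 and 9665 normalized counts in untreated cells and 5817, 5958 and 6375 under FK866 + NR, a log2 fold change of -0.52 (SE 0.085, adjusted p = 0.00729). None passed the fold minimum (edgeR), as did 0.901% of all genes, and 1 did with DESeq2. The count of 9 was 27 without untreated replicate 1 and 0 without any other of the 6 libraries, and the median lay between -0.39 and -0.27 in those fits.

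Ex527 was added to learn whether the response to NR needs sirtuin activity. Against FK866 + NR, the members had a median log2 fold change of 0.21 under FK866 + NR + Ex527, with 76 of 81 above 0, while that of all genes was -0.0007. At an unadjusted p under 0.05, 44 members were higher and 0 lower, where 23.2% of all genes changed. In 57 members all Ex527 libraries lay above all FK866 + NR libraries, as in 18.1% of all genes. At an adjusted p under 0.01 only Rpl17 rose, where 1.07% of all genes rose and 2.21% changed, and it also passed the fold minimum (0.21% of all genes upwards and 0.596% in all). Rpl17 had 2938, 1478 and 1400 normalized counts under FK866 + NR and 4438, 4955 and 5114 with Ex527, a log2 fold change of 1.32 (SE 0.26, adjusted p = 0.0065), with 78% of its windows shared. FK866 + NR replicate 1 was at about the level of the untreated libraries (1996, 2808 and 3601). Without FK866 + NR replicate 2 or 3 or any of the Ex527 libraries the adjusted p was between 0.0235 and 0.0407, and no member passed.

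The following members missed the threshold of 0.01. Rplp0 had 62059, 62147 and 64752 normalized counts with Ex527, above each FK866 + NR library, a log2 fold change of 0.34 (SE 0.073, adjusted p = 0.0126). Rpl13 had 17430, 17363 and 17076 (0.33, SE 0.082, adjusted p = 0.0276) and Rps6 had 20882, 19428 and 20810 (0.22, SE 0.067, adjusted p = 0.0637). For each of these the Ex527 libraries did not overlap the FK866 + NR libraries. The fibroblast markers moved here too, with 4 lower and 1 higher of 5, and their part was not tested.

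Between FK866 + NR + Ex527 and FK866 cells, 0 members passed an adjusted p of 0.01 (edgeR and DESeq2), where 4.75% of all genes did and 1.27% with the fold minimum. With an unadjusted p under 0.05 there were 6 members and 27.1% of all genes, and the median was -0.062. Rpl3 (-0.15, SE 0.063, adjusted p = 0.125) and Rps6 (-0.16, SE 0.067, adjusted p = 0.139) had the smallest p. Against untreated cells the median was -0.11. There, 18 members lay lower without overlap, where 18.8% of all genes did, and Rps27l alone fell at an adjusted p under 0.01, where 2.51% of all genes fell, 4.5% changed and 1.42% passed the fold minimum. With an unadjusted p under 0.05 there were 11 members and 33.1% of all genes. In each fit without 1 of these 6 libraries its adjusted p was between 0.0126 and 0.0548. All comparisons of HL-1 treatments share libraries with one another, so they are not independent.

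**Figure D5:**
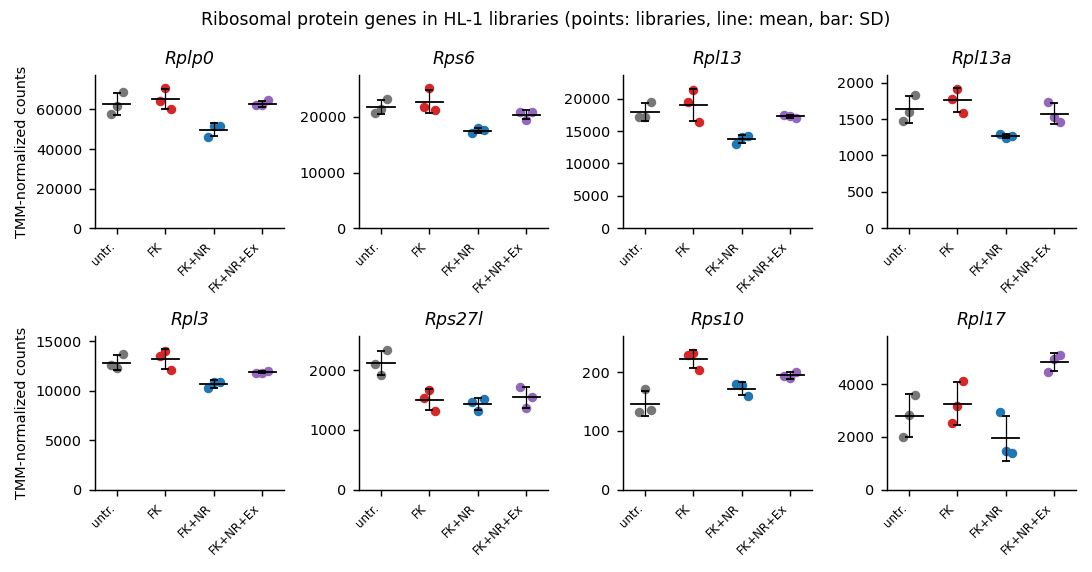
TMM-normalized counts (y axis) of 8 members in the HL-1 libraries by treatment (x axis: untreated, FK866, FK866 + NR, FK866 + NR + Ex527), with points for libraries, lines for means and bars for SD (n = 3). Rplp0, Rps6, Rpl13, Rpl13a and Rpl3 were lowest in the 3 FK866 + NR libraries, while Rps27l was highest in the 3 untreated libraries.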

How the data were processed

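For hearts, the authors trimmed single-end reads (Trimmomatic 0.39), aligned them to mm10 (STAR 2.7.10a), removed duplicates (Picard 3.0.0), multi-mapping, ribosomal and mitochondrial reads, and counted reads over exons that lay in 1 gene (featureCounts 2.0.4). They deposited these counts per gene and a score, the counts divided by DESeq2 1.36.0 size factors and rounded. The names of both tables are exchanged: the counts have totals from 3922137 to 7562215, the score from 5228575 to 5767293. The score was used only for gene symbols. The HL-1 tables that the authors deposited hold raw counts, FPKM values and gene lengths. HISAT2 is named in the processing notes, and the counter is not given in the sources used here. FPKM values served for levels only.

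Counts were fitted with edgeR 4.0.16 (limma 3.58.1, R 4.3.3; TMM, quasi-likelihood test, two-sided, Benjamini-Hochberg over all genes tested), with all 18 hearts in one fit and all 12 HL-1 libraries in another. Heart genes with an average count over 5 (15443) and HL-1 genes passing filterByExpr (14760) were tested. Thresholds were an adjusted p under 0.05 in hearts and under 0.01 in HL-1 cells, without and with a log2 fold change over 0.58496. Normalized counts are TMM-normalized. Fits were tested on simulated data. Replicates of a group differed by more than counting noise (chi-square per degree of freedom of at least 1.07 in hearts and 4.15 in HL-1 cells) and were kept separate. The depth limits members under about 5 counts, whose changes could not be tested.

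Members and gene lists were chosen with earlier results of these data known. Named were the paralog pairs, members with known additional roles, up to 3 called members of an average count of at least 50 with the largest change in each direction (otherwise the 2 with the smallest p) per comparison, and the 3 highest and lowest per length. Some results under this rule are not reported here. Other genes with values were named after those were seen or by adjusted p within their list. Positions are from GENCODE M21 (GRCm38), and windows around gene starts from RefSeq (GRCm38.p6). Alternatives were DESeq2 1.42.0, library totals, DESeq2's size factors or TMM without the members as scaling, other filters on low counts, a fit of the compared groups alone, a block for the replicate number, subsets of members, each library left out, and the library total as a covariate, which was chosen after seeing the data.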

Additional observations from a re-analysis of the deposited data

How the results depend on the processing

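The median log2 fold change of members moved by less than the SD between replicates (0.161 in hearts, 0.121 in HL-1 cells) in all 261 alternative values. The shares of counts moved by less than the SD of their group in all 40. Every median in hearts, and some in HL-1 cells, were themselves smaller than this SD. For those medians the count cannot show that size or sign was kept, and several changed sign with 1 library left out, as given above. Of 327 counts of members called or past the adjusted p, 229 stayed within 1.5 times the reported count and 98 did not. Of 444 alternative values of the named genes, 371 kept their side of the threshold and none changed direction. Causes were not tested.

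In hearts, the count in young hearts between the times became 1 with library totals as scaling and with the library total as a covariate (0 to 1 with 1 heart left out). Between old H2O and young hearts at ZT10 it became 1 with only the groups compared and with the covariate, and at ZT22 it became 0 with DESeq2, library totals or only the groups compared (0 to 1 with 1 heart left out).

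In HL-1 cells, members past both thresholds numbered, for FK866 against untreated cells, 2 without a filter and 0 with only the groups compared or the covariate (0 to 2 with 1 library left out), and past the adjusted p alone 6, 0 and 1 (0 to 8). For FK866 + NR against FK866 they numbered 3 without a filter and 0 with DESeq2, an average count over 5 or only the groups compared (0 to 4), and past the adjusted p alone 34 with DESeq2, 31 with library totals, 48 without a filter and 9 with only the groups compared (4 to 50). For FK866 + NR against untreated cells they numbered 1 with DESeq2, without a filter and with only the groups compared (0 to 2), and past the adjusted p alone 50, 62 and 29, 3 with library totals and 0 with an average count over 5 or the covariate (0 to 27). For FK866 + NR + Ex527 against FK866 + NR they numbered 0 with an average count over 5 or the covariate (0 to 1), and past the adjusted p alone 0 with the same settings, 6 with DESeq2, 24 without a filter and 28 with only the groups compared (0 to 1). Against FK866, 1 passed the adjusted p without a filter. Against untreated cells, 1 passed both thresholds without a filter and with only the groups compared, and 4 and 2 passed the adjusted p alone, 0 with an average count over 5 or the covariate (0 to 0).

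The replicate numbers did not pair the libraries: deviations from group means correlated above 0.1 in 4 of 45 same-numbered pairs of hearts and 2 of 18 of HL-1 libraries. With the replicate number as a block, 1 member was called between the times in young hearts. In HL-1 cells the block left 11 members past the adjusted p and 0 past both thresholds for FK866 + NR against FK866, 0 for FK866 + NR against untreated cells, 0 under either rule for FK866 + NR + Ex527 against FK866 + NR and 0 for FK866 + NR + Ex527 against untreated cells.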

Other observations

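Mitochondrial ribosomal proteins, which are encoded by other nuclear genes, carried about as large a share of the heart counts as the cytosolic members, for example 0.527% and 0.582% in replicate 1 of the old H2O hearts at ZT10. Removal of duplicates and of reads that map to several places bears on the cytosolic share there. In untreated HL-1 cells, replicate 1 had 0.316% and 3.32%. In old H2O against young hearts at ZT22, 0 of 77 mitochondrial ribosomal proteins were higher and 3 lower, with a median of -0.097. Of all genes, 6.17% were called lower there and 14.1% in either direction.

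The limits of these data are the following. Duplicates and shared reads had been removed from the heart counts, and the level of the members there moved with library depth. The absence of calls in hearts is therefore not evidence that the members were unchanged. A member with shared sequence or overlapping exons cannot be told apart from its copies. The HL-1 cells lack defining cardiomyocyte markers, and their results stand apart from those of the hearts. In HL-1 cells the number of members past the threshold depends on single libraries, whereas the direction of their median did not in any fit of FK866 + NR against FK866. Transcript levels do not measure translation.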
